A study of Homo sapiens with 16 samples.

Results

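Enzalutamide (ENZ) and apalutamide (APA) are antiandrogens built on a thiohydantoin ring, and their effect on gene expression was followed here in prostate cancer cells that received no androgen. The 4 libraries of cells given ENZ or APA without dihydrotestosterone (DHT), 2 per compound, were selected from the 16 libraries of the series by their treatment labels, and the values they are compared with come mainly from the 2 vehicle libraries. All libraries were made from LNCaP, an established human prostate cancer line that grows in response to androgens. Growth in 5% serum for 72 h was followed by 48 h in 5% serum stripped of steroids with charcoal, and the treatment then lasted 48 h. The VEH group received the solvents alone, ethanol and DMSO. The ENZ.VEH and APA.VEH groups received 10 µM of the compound together with the ethanol in which DHT would be given, and the BIC.VEH group received 10 µM of bicalutamide (BIC), an older antiandrogen, in the same way. A DHT group, at 10 nM, is used only to show how large the response of a gene to androgen was. Each group held 2 biological replicates, whose sample names carry the number 3 or 7, and libraries of the same number were compared with each other.

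Androgens act through a nuclear receptor that binds DNA at androgen response elements and switches on genes of prostate secretion and of growth, among them the kallikrein proteases. Antiandrogens compete with the hormone for that receptor. ENZ and APA share the thiohydantoin core with a substituted benzamide, and differ in that APA has a pyridine in place of a benzene ring and a cyclobutane ring in place of the pair of methyl groups on the thiohydantoin. BIC has no thiohydantoin. The question addressed is what ENZ and APA, at the same dose and time, do to transcripts when almost no androgen is there to be blocked, and whether the compounds differ from each other.

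Expression is given as TPM, a level corrected for gene length and scaled to a fixed total per library, and differences as log2(TPM + 1) in the treated minus the control libraries, which understates the change of weakly expressed genes. Of 60642 gene symbols, 16636 reached a TPM of 1 in 2 or more of the 16 libraries and were tested together with limma, with the replicate number as a block. Genes with a p-value under 0.05 after Benjamini-Hochberg adjustment over all 16636 are referred to as called. DHT against VEH gave 4559 called genes by this rule, which was 27.4% of those tested. The luminal epithelial markers were present in the 8 libraries without DHT, where they summed to between 2042 and 2453 TPM. Markers of other cell types reached 1 TPM in these libraries for 1 of 5 basal markers (ITGB4, list sum 5.09 to 12.47 TPM), 2 of 6 fibroblast markers (COL1A1 and COL3A1, 23.17 to 34.83), 1 of 6 immune markers (CD68, 1.25 to 12.29) and 1 of 4 endothelial markers (VWF, 0.76 to 1.64).

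Promoter sequence is shown for KLK3, KLK2 and ARHGEF26. The 250 bases before the annotated gene start are taken from RefSeq (GRCh38.p14) and run 5′ to 3′ on the strand of the gene, with capitals for matches to the motifs searched on both strands, which follow the androgen response element. These were AGAACA, and GAACA followed by any 4 bases and GTNCT, and matches to them can overlap. KLK3 lies at chr19:50854665-50854914 on the plus strand and encodes prostate-specific antigen. KLK2, at chr19:50873189-50873438 on the plus strand, encodes a related protease. ARHGEF26, at chr3:154120753-154121002 on the plus strand, encodes a guanine nucleotide exchange factor for RHOG and had the clearest difference between the thiohydantoins and VEH.
KLK3: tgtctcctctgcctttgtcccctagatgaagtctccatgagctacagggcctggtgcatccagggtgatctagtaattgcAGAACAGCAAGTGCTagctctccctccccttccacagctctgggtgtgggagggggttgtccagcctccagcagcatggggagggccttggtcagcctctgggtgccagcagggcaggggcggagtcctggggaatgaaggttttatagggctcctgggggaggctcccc
KLK2: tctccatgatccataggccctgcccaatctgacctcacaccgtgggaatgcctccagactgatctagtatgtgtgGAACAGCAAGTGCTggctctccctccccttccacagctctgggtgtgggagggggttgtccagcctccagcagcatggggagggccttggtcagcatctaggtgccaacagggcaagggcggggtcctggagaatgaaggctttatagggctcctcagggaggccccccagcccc
ARHGEF26: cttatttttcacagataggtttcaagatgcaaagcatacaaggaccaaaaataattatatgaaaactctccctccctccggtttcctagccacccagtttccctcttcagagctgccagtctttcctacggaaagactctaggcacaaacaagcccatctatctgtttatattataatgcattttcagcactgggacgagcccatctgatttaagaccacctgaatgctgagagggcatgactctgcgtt

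The same 14 letters, GAACAGCAAGTGCT, stood in both kallikrein promoters, from position -169 to -156 before the start of KLK3 and from -175 to -162 before that of KLK2. Of 35116 promoters of this length, 0.216% held a match to the loosened form, 0.00285% to the full palindrome and 12.4% to AGAACA. No promoter shown held the full palindrome, and that of ARHGEF26 held no match at all. The promoter of SLC45A3, another androgen-induced gene, was also searched and held no match. The loosened form leaves free the bases at which the kallikrein sites depart from the palindrome. Its match in them and its share are therefore not findings. The KLK3 and KLK2 promoters also shared an unbroken run of 80 bases. The likeness of these genes continues into their transcripts, so the division of reads between KLK3 and KLK2 is uncertain.

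Without androgen, the thiohydantoins changed very few transcripts detectably. Against VEH, the mean of ENZ.VEH and APA.VEH differed for 2 genes, 0.012% of those tested, ARHGEF26 lower and the small nuclear RNA RNU5E-1 higher. At an unadjusted p below 0.05 there were 328 genes, 143 higher and 185 lower. The median 95% interval of a difference reached 0.309 (log2) to each side. ENZ.VEH alone against VEH gave 0 called genes by limma (0%), with 483 at an unadjusted p below 0.05. APA.VEH alone gave the same 2 genes, ARHGEF26 and RNU5E-1 (0.012%), with 399 at an unadjusted p below 0.05.

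ARHGEF26 was listed at a TPM of 65.07 and 51.05 in the VEH libraries with numbers 3 and 7. It was at 38.68 and 37.67 in ENZ.VEH and at 32.7 and 27.85 in APA.VEH, so that all 4 thiohydantoin libraries lay below both VEH libraries. The mean level was 58.1 ± 9.91 (SD, n = 2) in VEH, 38.2 ± 0.71 in ENZ.VEH and 30.3 ± 3.43 in APA.VEH. The pooled difference was -0.75 (SE 0.078, limma adjusted p = 0.0117), a level 0.596 times that of VEH on the log2(TPM + 1) scale. APA.VEH alone differed by -0.91 (95% interval -1.11 to -0.713, limma adjusted p = 0.00682). ENZ.VEH alone differed by -0.58 (95% interval -0.781 to -0.384), which was not called (limma adjusted p = 0.435). The difference between the compounds was -0.33 (95% interval -0.528 to -0.131, APA.VEH minus ENZ.VEH) and was not called either (limma adjusted p = 0.775).

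The call on ARHGEF26 depends on the design of the test. Without the replicate number as a block, its pooled difference was the same but the adjusted p was 1, and it was also not called with a fit of the compared groups alone (0.239), with only the libraries without DHT in the fit (0.138) or after median-ratio scaling (0.0758). It was lost when either VEH library or either APA.VEH library was left out, with adjusted p up to 0.675. ARHGEF26 rose with DHT, to 99.47 and 92.74 TPM, a difference of 0.73 from VEH (limma adjusted p = 0.000233). The gene spans chr3:154121003-154257825 (GRCh38.p14) and overlaps an antisense gene, ARHGEF26-AS1, which was at 6.45 and 6.26 TPM in VEH, 6.32 and 5.97 in ENZ.VEH and 5.32 and 5.4 in APA.VEH. The library kit keeps the strand of the RNA, but whether the quantification used it was not given in the sources used here.

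RNU5E-1, a gene of the U5 small nuclear RNA that takes part in splicing, had a TPM of 8.68 and 11.91 with APA. It was listed at 0 in both VEH, both ENZ.VEH and both BIC.VEH libraries, and also in both DHT libraries. It is a short transcript without a poly(A) tail, with near-identical copies in the genome, and libraries were selected for poly(A) RNA. No fold is given because an exact 0 in such a table can be a failed estimate, and with a pseudocount of 0.1 the gene was no longer called in any comparison (limma adjusted p between 0.0965 and 1).

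Genes picked by a fixed rule show the size of the remaining differences. The rule ranked genes by moderated t and took the top 10 and the bottom 10 of those whose 4 thiohydantoin libraries did not overlap the 2 VEH libraries, and 141 genes met its other conditions on the higher side and 270 on the lower side, or 0.848% and 1.62% of those tested. The rule used the levels, so that the separation of these genes is not a finding. Apart from ARHGEF26, none of these 20 genes was called (limma adjusted p = 1 for each, 2 libraries per group).

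On the higher side stood CEP192, a scaffold of the centrosome, at 9.05 and 9.17 TPM in VEH, 12 and 12.38 in ENZ.VEH and 10.98 and 12.19 in APA.VEH. AKAP13, an anchor of protein kinase A that also activates RHOA, was at 8.63 and 9.44, then 13.26 and 12.93, then 9.58 and 11.53. UVRAG, which acts in autophagy, was at 7.21 and 7.56, then 9.12 and 8.79, then 9.63 and 10.14. These differences were between 0.31 and 0.35 (log2). The others were CARD10, FAM20C (a kinase of secreted proteins), the RNAs ZBED3-AS1 and COX10-AS1, AC048382.7, the ferritin pseudogene FTH1P11, and SMIM11B. BIC.VEH also lay above VEH in both numbers for CEP192 (0.10 and 0.24), AKAP13 (0.16 and 0.37), FAM20C, ZBED3-AS1, FTH1P11 and COX10-AS1. For CARD10, AC048382.7, UVRAG and SMIM11B the sign of the BIC difference changed between the numbers.

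On the lower side, EIF5A2, a translation factor of narrow tissue range, was at 6.98 and 8.78 TPM in VEH, 3.78 and 4 in ENZ.VEH and 5.7 and 6.8 in APA.VEH. DEPTOR, an inhibitor of mTOR, was at 6.8 and 8.24, then 4.91 and 6.37, then 4.74 and 5.93. DEPDC5, part of a complex that restrains mTORC1 when amino acids are scarce, was at 11.5 and 11.76, then 9.34 and 9.46, then 7.79 and 10.07. Their pooled differences were -0.57, -0.40 and -0.32 (log2). SLC35B4 (a transporter of nucleotide sugars), ESPN (an actin-bundling protein), ZFPM1 (a partner of GATA factors), DERPC, the small nucleolar RNA SNORA71B and SMIM11A completed the side. SMIM11A and SMIM11B are near-identical copies, and with differences of -1.17 and 0.88 the division of reads between them is uncertain. BIC.VEH also lay below VEH in both replicate numbers for every gene of this side except ARHGEF26, which was higher (0.41 and 0.56). EIF5A2 differed by -0.60 and -0.66 with BIC, and ESPN by -0.55 and -0.51. The BIC differences were -0.02 and -0.18 for DEPTOR and -0.07 and -0.17 for DEPDC5. The lower EIF5A2 and ESPN levels were therefore not particular to the thiohydantoins.

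Taken apart, leading genes were named for each compound, 5 per direction by the same rule, with ARHGEF26 in both. The conditions of the rule were met by 690 genes higher and 1025 lower with ENZ, or 4.15% and 6.16% of those tested. With APA they were met by 673 higher and 1327 lower, or 4.05% and 7.98%. For ENZ.VEH, VEGFB, a growth factor of the VEGF family, was at 12.12 and 8.28 TPM in VEH and 16.74 and 14.1 with ENZ (0.57). DTNA, a dystrobrevin of the membrane cytoskeleton, was at 22.86 and 16.36 in VEH and 14.07 and 11.09 with ENZ (-0.59, limma adjusted p = 0.876). HMOX1, AKAP13, FTH1P11 and AC018638.2 were the others on the higher side, and EIF5A2, LINC01695 and HACL1, an enzyme of fatty acid alpha-oxidation, on the lower side. BIC.VEH lay on the same side of VEH in both numbers for each of these ENZ genes except ARHGEF26. Its differences were -0.60 and -0.50 for DTNA, -0.36 and -0.44 for HACL1 and 0.15 and 0.25 for VEGFB. The direction of these genes was therefore not particular to ENZ. For APA.VEH, SNORA73B, a small nucleolar RNA, was at 1.09 and 4.9 in VEH and 12.67 and 19.37 with APA (2.25), and lies within other transcribed genes. Others were SMIM11B, UVRAG, LSM12P1 and AC009478.1, higher, and TMPRSS2, ESPN and DERPC, lower. Of these genes, only ARHGEF26 under APA was called.

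**Figure D1:**
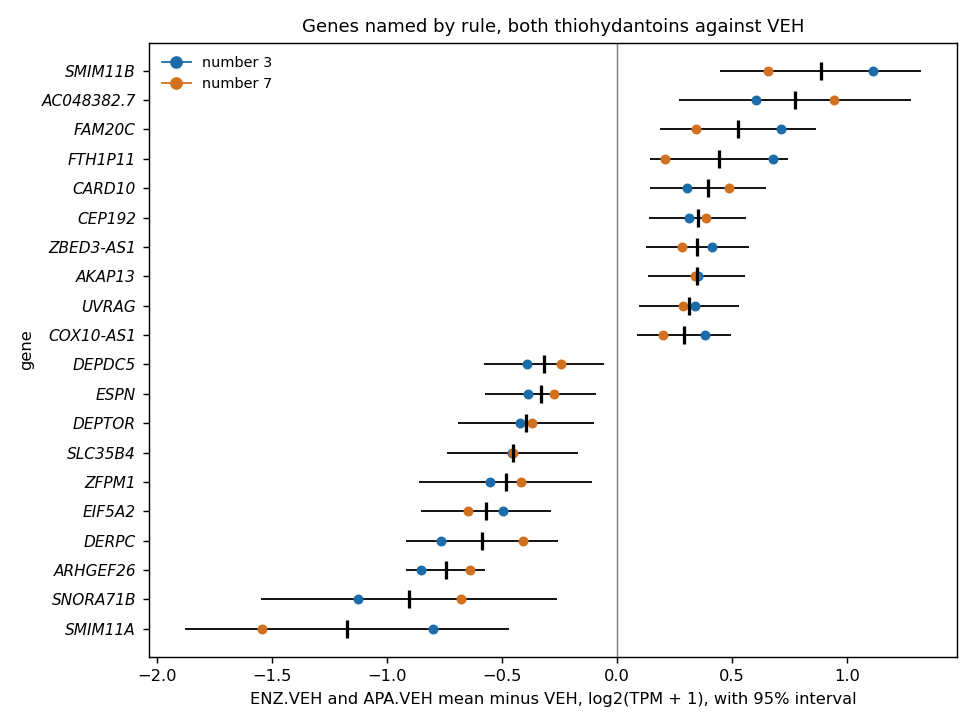
Differences of the 20 genes named by rule, as the mean of ENZ.VEH and APA.VEH minus VEH in log2(TPM + 1). Black ticks are fitted differences, black lines their 95% intervals, and coloured points the differences within number 3 and number 7. ARHGEF26, at -0.75, has a narrow interval, and only it was called among these genes.

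The genes that DHT switches on showed how each compound sat against the androgen-depleted baseline. The list holds 31 genes, all tested, of which DHT called 27 higher (10.6% of all genes were), with a median difference of 2.20, and 29 of them were higher in both replicate numbers (29.2% of all genes were). For the thiohydantoins together the median was -0.02, against -0.01 for all tested genes, with 5 higher in both numbers (19.2% of all genes) and 8 lower in both (28.2%), and 0 of the 31 were called in either direction. The compounds taken apart lay on different sides of VEH for some members. ENZ.VEH had a median of 0.02 with 10 of 31 higher in both replicate numbers (22.2% of all genes were) and 10 lower in both (25.4% of all genes). Apalutamide (APA.VEH) had a median of -0.13, with 4 higher in both (20.1% of all genes) and 20 lower in both (35.5% of all genes). No member was called for either compound, and the comparisons share their VEH libraries.

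KLK3 was at 53.04 and 24.01 TPM in VEH, 72.87 and 71.54 in ENZ.VEH and 30.41 and 20.38 in APA.VEH. Both ENZ.VEH libraries were above both VEH libraries, while APA.VEH overlapped VEH. Against VEH the differences were 0.99 for ENZ (95% interval 0.277 to 1.71) and -0.50 for APA (95% interval -1.22 to 0.212), and neither was called (limma adjusted p = 1 for both). With a library left out the ENZ difference ranged from 0.48 (without the ENZ.VEH library of number 7) to 1.51 (without that of number 3), and the APA difference from -0.72 (without the APA.VEH library of number 7) to -0.29 (without that of number 3).

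KLK2 was at 4.78 and 3.6 TPM in VEH, 9.09 and 11.57 in ENZ.VEH and 2.5 and 2.86 in APA.VEH, with no overlap between the groups. Of all tested genes, 4.15% met the naming rule, which asks for such separation, as higher with ENZ and 7.98% as lower with APA. KLK4, another prostate kallikrein, was at 41.97 and 22.08 in VEH, 59.16 and 50.42 in ENZ.VEH and 28.02 and 19.88 in APA.VEH, where APA overlapped VEH and ENZ did not. All of these levels were far under those with DHT, where KLK3 reached 4102 and 2422 TPM and KLK2 494 and 485.

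TMPRSS2, an androgen-driven serine protease of the cell surface, was at 46.36 and 31.13 TPM in VEH, 45.42 and 34.27 in ENZ.VEH and 28.84 and 24.06 in APA.VEH. The 2 APA.VEH libraries were below the others, with a difference of -0.51 from VEH (SE 0.11, limma adjusted p = 1). SLC45A3, a prostate-restricted sugar transporter also known as prostein, was at 23.27 and 20.73, then 24.21 and 32.3, then 16.94 and 19.66. TRPM8, a cold-sensing ion channel, was at 2.64 and 2.18, then 2.17 and 1.87, then 2.1 and 0.76. FKBP5, a chaperone partner of steroid receptors that DHT raised by 2.68, was between 10.48 and 13.5 TPM in all 6 libraries.

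**Figure D2:**
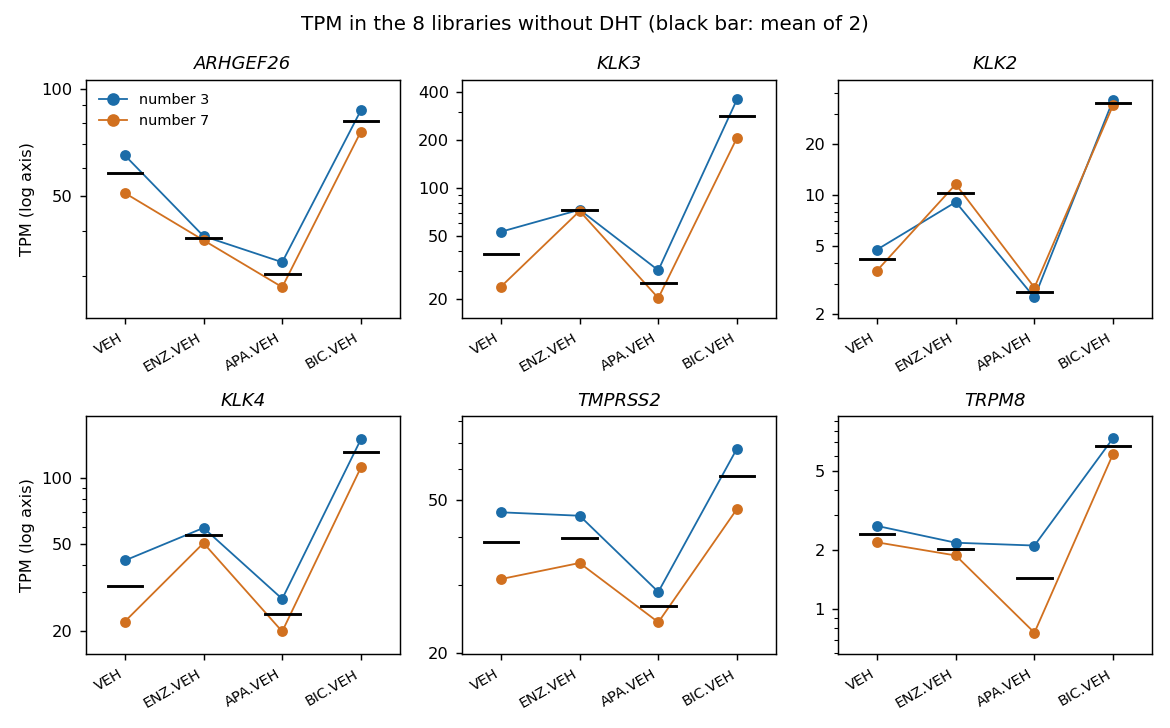
TPM on log axes of ARHGEF26, KLK3, KLK2, KLK4, TMPRSS2 and TRPM8 in the 8 libraries without DHT, where points are libraries, lines join the same replicate number and black bars are means of 2. The kallikreins are higher in ENZ.VEH than in APA.VEH in both numbers, for example 72.87 against 30.41 TPM for KLK3 in number 3.

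At the matched dose of 10 µM and time of 48 h, 1 pair of compounds was compared, APA.VEH minus ENZ.VEH. It gave 1 called gene, RNU5E-1 (0.00601% of those tested), and 909 genes at an unadjusted p below 0.05, 188 higher and 721 lower with APA. No androgen-induced gene was called. The largest differences in that list were KLK2 at -1.62 (95% interval -2.52 to -0.707), KLK3 at -1.50 (95% interval -2.21 to -0.782) and KLK4 at -1.18 (95% interval -1.71 to -0.646). TMPRSS2 differed by -0.57 (95% interval -0.81 to -0.32) and SLC45A3 by -0.59 (95% interval -0.865 to -0.315). The adjusted p of each was 0.775 by limma, although their unadjusted p-values were 0.00249 for KLK2, 0.000802 for KLK3, 0.000514 for KLK4, 0.000379 for TMPRSS2 and 0.000666 for SLC45A3. On the log2(TPM + 1) scale the APA level was 0.326 times the ENZ level for KLK2, 0.354 times for KLK3 and 0.443 times for KLK4.

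Over the 31 androgen-induced genes, 21 were lower with APA than with ENZ in both replicate numbers and 4 were higher in both, against 32.1% and 25.9% of all genes. Their median was -0.13, against -0.02 for all genes, and lay at -0.14 in number 3 and -0.10 in number 7. Without the ENZ.VEH library of number 3 the median was -0.03. Of the 14 tested genes of the androgen-repressed list, DHT called 12 lower (16.8% of all genes were) and 1 higher (10.6% of all genes were). With APA, 12 of the 14 were higher than with ENZ in both numbers and 0 were lower in both, with a median of 0.17. None was called between the compounds. UGT2B15, which inactivates androgens by glucuronidation, was at 114 and 193 TPM in VEH, 50.34 and 181.8 in ENZ.VEH and 128.2 and 232.9 in APA.VEH, and its APA minus ENZ difference was 0.84 (SE 0.30, limma adjusted p = 0.848). Reads of UGT2B15 and the similar UGT2B17 are hard to separate. BCHE, a cholinesterase, was at 71.29 and 92.77 in ENZ.VEH and 93.13 and 103.8 in APA.VEH (0.27, limma adjusted p = 0.893).

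**Figure D3:**
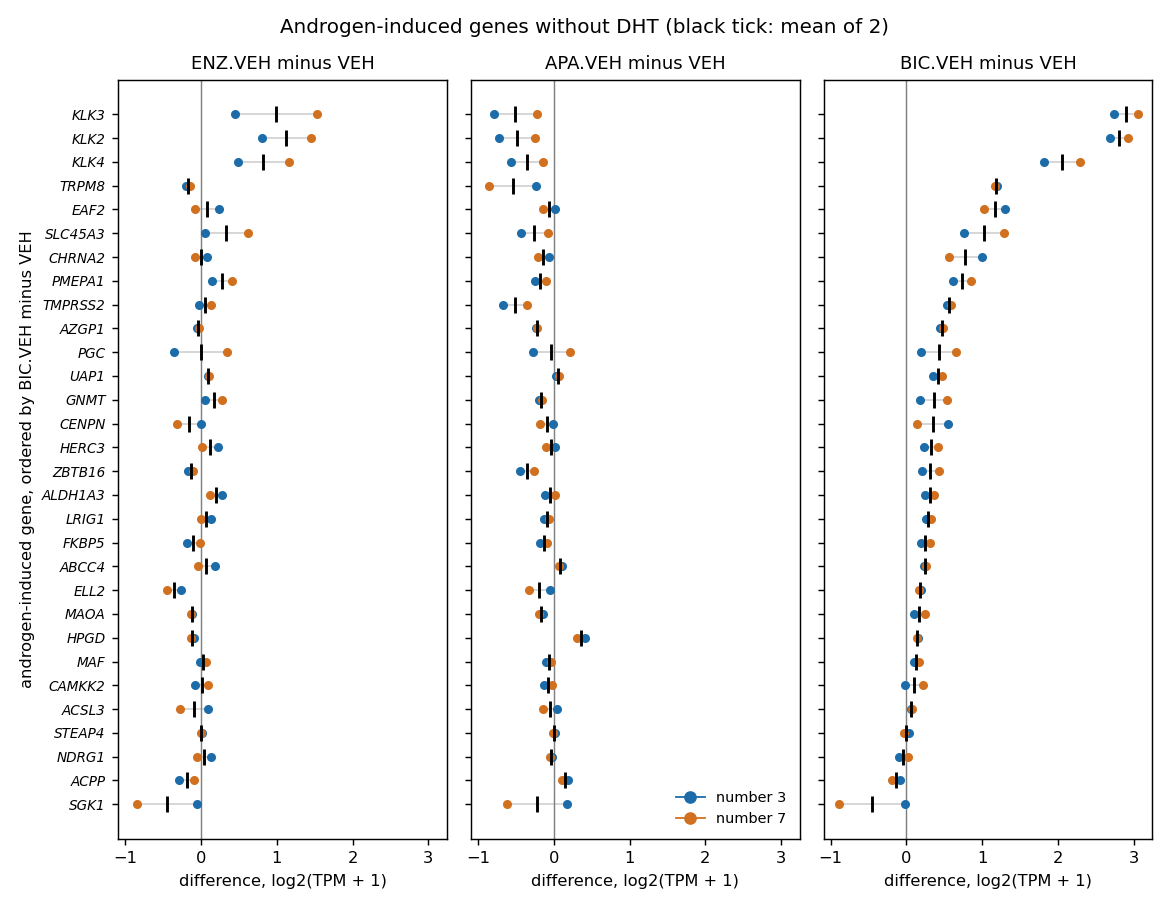
Difference from VEH in log2(TPM + 1) for 30 genes of the androgen-induced list in ENZ.VEH, APA.VEH and BIC.VEH. Points are the differences within number 3 and number 7, black ticks their means, and the 3 panels share the same VEH libraries. KLK3, KLK2 and KLK4 lie to the right of 0 with ENZ, to the left with APA, and far to the right with BIC.

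The rule for named genes took 10 more genes for this pair, besides RNU5E-1. Its conditions were met by 1207 genes on the higher side and 1482 on the lower side, or 7.26% and 8.91% of those tested. MCTS2P, a pseudogene-derived copy of a translation factor, was at 1.46 and 1.6 TPM in ENZ.VEH and 4.11 and 5.97 in APA.VEH (1.24, SE 0.29). EIF5A2, named above, was at 3.78 and 4 in ENZ.VEH and 5.7 and 6.8 in APA.VEH (0.56, SE 0.15). The RNAs AL132780.3 and STIM2-AS1 and the calcium-binding EFHC2 were also on the higher side. On the lower side, NBEAL2, needed for platelet granules, was at 104.7 and 88.72 in ENZ.VEH and 74.85 and 63.68 in APA.VEH (-0.48, SE 0.095). MAN2C1, a cytosolic mannosidase, was at 172.5 and 125.1 in ENZ.VEH and 117.5 and 101.1 in APA.VEH (-0.43, SE 0.086). TMPRSS2, KLK4 and SLC45A3 were the other 3. None of the 10 was called (limma adjusted p = 0.775 for each).

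A p-value that misses the threshold does not show that the compounds act alike, so the width of the intervals matters. The median 95% interval of an APA minus ENZ difference reached 0.357 (log2) to each side. For 93.4% of the 16636 genes, the whole interval lay within a 2-fold change in either direction. The intervals of KLK2, KLK3, KLK4, HMOX1 (-1.56 to -0.435) and MCTS2P (0.60 to 1.88) reached past 2-fold, while that of FKBP5 was -0.308 to 0.243.

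Stress lists separated the compounds too, mainly through a single library. All 13 tested genes of the NRF2 list, the antioxidant response, had a difference above 0 for ENZ.VEH against VEH, with a median of 0.23. Of them, 9 were higher in both numbers (22.2% of all genes were), and none was called. The median was 0.48 in number 3 and 0.08 in number 7, and 0.057 without the ENZ.VEH library of number 3. HMOX1, the heme oxygenase, was at 13.23 and 10.82 TPM in VEH, 42.89 and 15.91 in ENZ.VEH and 15.86 and 10.01 in APA.VEH. FTH1, the heavy chain of ferritin, was at 4311 and 3162, then 7493 and 3510, then 5103 and 3330. In the APA minus ENZ comparison, 9 of 13 were lower in both numbers (32.1% of all genes were), with a median of -0.17, or -0.0068 without the ENZ.VEH library of number 3. The list mean in numbers 3 and 7 was 7.19 and 6.82 in BIC.VEH, against 7.06 and 6.79 in VEH (log2(TPM + 1)).

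Genes under ATF4, the factor of the amino acid and integrated stress response, were similar. Of 25 tested, 20 were higher in both numbers with ENZ against VEH (22.2% of all genes were), with a median of 0.22 (0.092 without the ENZ.VEH library of number 3), and 4 with APA (20.1% of all genes were), with a median of 0.0020. Between the compounds, 20 of 25 were lower with APA in both numbers (32.1% of all genes were). The median was -0.22, or -0.09 without the ENZ.VEH library of number 3. GDF15, a secreted stress cytokine, was at 196 and 82.7 TPM in VEH, 363.8 and 122.2 in ENZ.VEH and 191.2 and 79.25 in APA.VEH, with a difference of -0.77 between the compounds (SE 0.18, limma adjusted p = 0.775). DDIT3, a stress transcription factor, was at 45.26 and 39.83, then 107.6 and 43.56, then 53 and 41.17, so that only the ENZ.VEH library of number 3 stood out.

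The zinc-binding metallothioneins showed the same library. MT2A was at 201.5 and 128.6 TPM in VEH, 646.1 and 160.2 in ENZ.VEH and 268.2 and 133.7 in APA.VEH. MT1A, MT1E, MT1H and MT1M were listed at 0 in all 8 libraries without DHT. The ENZ.VEH library of number 3 also had the highest CD68 level, 12.11 TPM against 6.43 in VEH and 6.16 in APA.VEH of the same number, while PTPRC and CD3E were listed at 0 there, and 5 of the 6 immune markers were below 1 TPM throughout. The metallothionein list also holds the zinc transporter SLC30A1. Over its 5 tested genes, the median ENZ.VEH against VEH difference was 1.34 in number 3 and 0.0010 in number 7. Why this library stood apart was not tested.

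**Figure D4:**
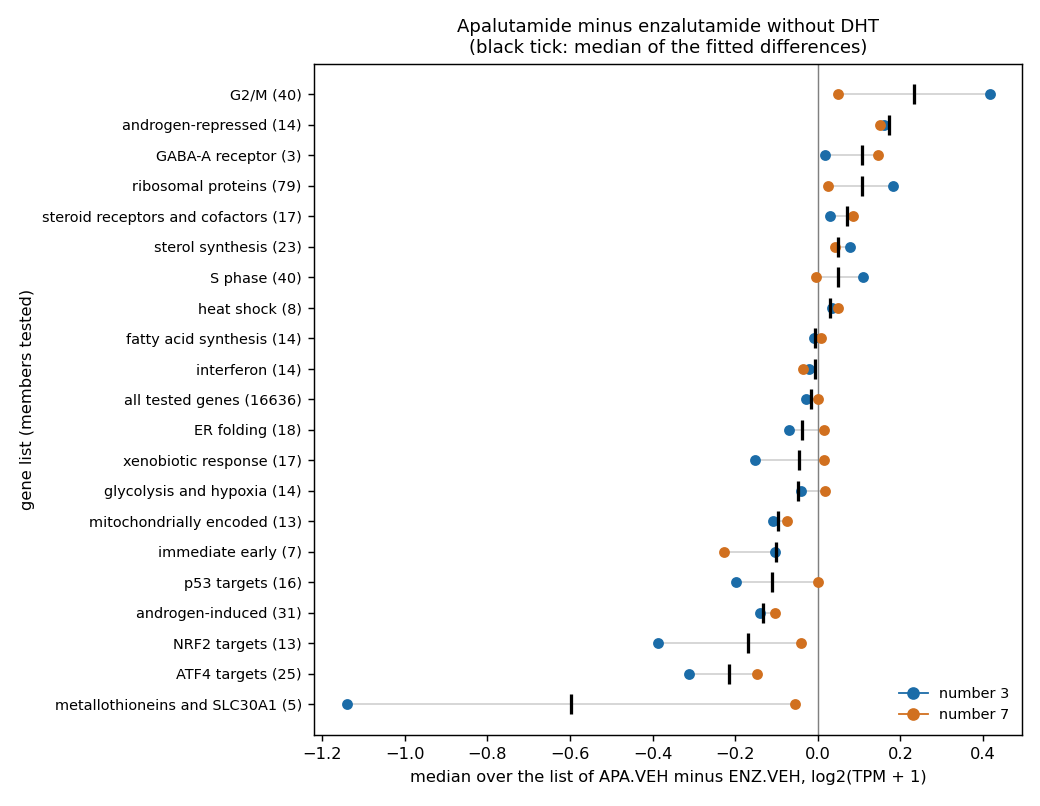
Median APA.VEH minus ENZ.VEH difference over the tested members of each gene list, in log2(TPM + 1). Points are the medians within number 3 and number 7 and black ticks the medians of the fitted differences. The metallothionein, NRF2 and G2/M lists lie far from 0 mainly in number 3, while the androgen-induced list lies at -0.14 and -0.10 and the androgen-repressed list at 0.16 and 0.15.

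Proliferation genes leaned lower under both thiohydantoins. Of 40 genes of G2/M, the phase before division, all 40 had a difference below 0 for the thiohydantoins against VEH and 36 were lower in both replicate numbers (28.2% of all genes were), with a median of -0.34. Of 40 genes of DNA replication (S phase), 38 were below 0 and 32 lower in both, with a median of -0.21. None was called in either list (adjusted p = 1 by limma for MKI67 and MCM2), and DHT called 38 of 40 higher in each (10.6% of all genes were). The G2/M median was -0.53 in number 3 and -0.12 in number 7. It was -0.50 for ENZ.VEH and -0.23 for APA.VEH. Without the ENZ.VEH library of number 3 the median was -0.14 for ENZ.VEH and -0.20 for the pooled compounds, and without the APA.VEH library of number 3 it was -0.13 for APA.VEH.

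The replicate numbers differed more from each other than the treatments did. MKI67, a marker of cycling cells, was at 2.18 and 9.28 TPM in VEH, 0.83 and 7.9 in ENZ.VEH and 1.42 and 8.05 in APA.VEH. TOP2A, a topoisomerase of dividing cells, was at 4.1 and 17.13, then 0.68 and 12.49, then 1.54 and 16.46. MCM2, a helicase subunit that licenses replication, was at 17.25 and 26.04, then 11.34 and 26, then 12.23 and 24.48. Within a number both compounds were below VEH for these genes, but across numbers the groups overlapped. Fewer cycling cells and less of these transcripts per cell cannot be told apart in bulk RNA.

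Between the compounds, 22 of the 40 G2/M genes were higher with APA than with ENZ in both numbers (25.9% of all genes were), with a median of 0.23. The median lay at -0.09 without the ENZ.VEH library of number 3, so its direction rests on that library. The S phase median was 0.05.

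**Figure D5:**
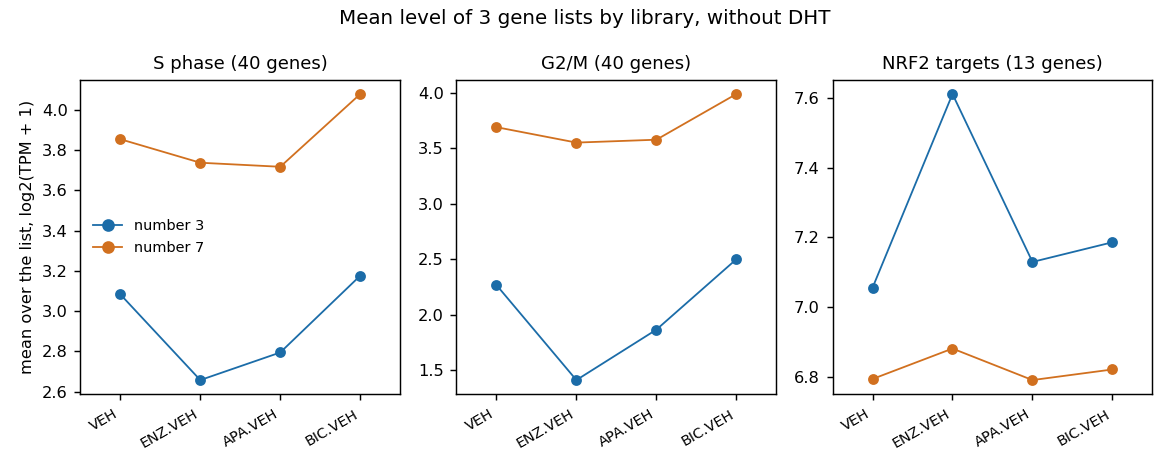
Mean level over the tested genes of the S phase, G2/M and NRF2 lists in each of the 8 libraries without DHT, in log2(TPM + 1), with lines joining libraries of the same replicate number. Number 3 is lower than number 7 for the cell cycle lists in every group, and the ENZ.VEH library of number 3 has the lowest G2/M mean, 1.41, and the highest NRF2 mean, 7.61.

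ENZ and APA are known in patients as inducers of liver drug metabolism through xenobiotic receptors, and as compounds that bind GABA-A receptors of the brain. Of 28 genes of the xenobiotic list, 12 were below 1 TPM in all 8 libraries without DHT. NR1I2, the pregnane X receptor through which such induction runs, was listed at 0 in all of them. Its target CYP3A4 was at 0.17 and 0.18 TPM in VEH, 0 and 0.03 in ENZ.VEH and 0.05 and 0.04 in APA.VEH and was too low to be tested. CYP3A5 was at 9.04 and 8.85 in VEH, 11.3 and 6.96 in ENZ.VEH and 7.6 and 7.04 in APA.VEH, with a pooled difference of -0.13 (95% interval -0.554 to 0.289, limma adjusted p = 1). None of the 17 tested members was called, and their pooled median was 0.02.

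Of 16 GABA-A receptor subunits, 3 were tested and none was called. GABRA3 was at 5.89 and 5.57 TPM in VEH, 6.72 and 4.52 in ENZ.VEH and 6.82 and 5.6 in APA.VEH, and 13 subunits were below 1 TPM in all 8 libraries.

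The glucocorticoid receptor NR3C1, which can take over androgen target genes in treated prostate cancer, stayed below 0.3 TPM in all of these libraries, at 0.08 and 0.09 in VEH, 0.26 and 0.21 in ENZ.VEH and 0.24 and 0.08 in APA.VEH. It was not tested. Of the 17 tested genes of steroid receptors and their cofactors, none was called, with a pooled median of -0.03. The pioneer factor FOXA1 was at 219.3 and 225.9 TPM in VEH, 210.9 and 222.9 in ENZ.VEH and 228.1 and 214.3 in APA.VEH, within the spread of the replicates.

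No other list held a called gene in the comparisons of the thiohydantoins with VEH or with each other. The pooled medians against VEH were -0.02 for 23 genes of sterol synthesis, -0.10 for 14 of fatty acid synthesis and -0.10 for 14 androgen-repressed genes. They were -0.0033 for 16 p53 targets, -0.01 for 18 folding factors of the endoplasmic reticulum, -0.03 for 8 heat shock genes, 0.03 for 14 of glycolysis and hypoxia and -0.02 for 14 interferon-stimulated genes. They were 0.01 for 7 immediate early genes, 0.01 for 13 genes of the mitochondrial genome and 0.0045 for 79 ribosomal protein genes, with -0.01 for all tested genes. Of 14 neuroendocrine genes, 11 were below 1 TPM in all 8 libraries, and the 3 tested had a median of -0.02. Between the compounds, 51 of 79 ribosomal protein genes were higher with APA in both numbers (25.9% of all genes were) and 10 of 13 mitochondrially encoded genes lower in both (32.1% of all genes were), with medians of 0.11 and -0.10. The ribosomal protein median was 0.18 in number 3 and 0.03 in number 7. It was -0.0049 without the ENZ.VEH library of number 3, so its direction rests on that library.

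Bicalutamide at the same dose and time served to show where the thiohydantoins differ from another antiandrogen. The mean of ENZ.VEH and APA.VEH differed from BIC.VEH for 14 genes, 0.0842% of those tested, 13 lower and 1 (RNU5E-1) higher, with 956 at an unadjusted p below 0.05. ARHGEF26 was again among them, at 86.98 and 75.84 TPM in BIC.VEH, which is above both VEH libraries, and differed by -1.23 (SE 0.078, limma adjusted p = 0.000153). It was the only protein-coding gene still called without the block (2 genes in all).

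Most of the called genes were androgen-induced. KLK3 was at 358.12 and 205.68 TPM in BIC.VEH, and the 4 thiohydantoin libraries at between 20.38 and 72.87, a difference of -2.65 (SE 0.28, limma adjusted p = 0.00621). KLK2 was at 36.21 and 33.73 and differed by -2.48 (SE 0.36, limma adjusted p = 0.0346). KLK4 was at 150.26 and 111.75 and differed by -1.82 (SE 0.21, limma adjusted p = 0.00702). The thiohydantoin libraries lay below both BIC.VEH libraries for each of these genes, and 2.64% of tested genes met the naming rule on this side. BIC.VEH itself was above VEH in numbers 3 and 7, by 2.73 and 3.05 for KLK3 and 2.69 and 2.92 for KLK2. For KLK4 it was above by 1.82 and 2.29. The differences from BIC therefore include a rise of BIC.VEH over VEH. TRPM8, at 7.35 and 6.12 in BIC.VEH, differed by -1.54, and SLC45A3, at 39.97 and 52.06, by -0.98 (limma adjusted p = 0.00621 for both). TMPRSS2, at 67.81 and 47.3, differed by -0.79 (limma adjusted p = 0.00971), and its BIC.VEH library of number 7 stood close to the ENZ.VEH library of number 3, at 45.42. PMEPA1, a brake on TGF-beta signalling, was at 33.42 and 27.03 and differed by -0.68 (limma adjusted p = 0.0286).

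Of the androgen-induced list, 8 of 31 were called lower (0.0781% of all genes were) and 25 were lower in both numbers (27.1% of all genes were), with a median of -0.36 against 0.01 for all genes. ELOVL5, a fatty acid elongase, was the called member of the fatty acid list, at 157.9 and 133.5 TPM in BIC.VEH and between 95.48 and 106.8 with the thiohydantoins (-0.53, limma adjusted p = 0.00971). KCNN2, a potassium channel, GPR158, an orphan receptor, and AL357139.2 were, besides ARHGEF26 and RNU5E-1, the called genes outside the lists, with differences of -1.04, -0.75 and -0.79, and the last pair was named after its values were seen. The calls on KLK2, PMEPA1, GPR158 and AL357139.2 were lost when any of the 6 libraries was left out (KLK2 with limma adjusted p up to 0.523), and those on KLK3, KLK4, KCNN2, SLC45A3 and TRPM8 when either BIC.VEH library was. ELOVL5 was lost without either BIC.VEH or either APA.VEH library, TMPRSS2 without either BIC.VEH library or the ENZ.VEH library of number 3, and RNU5E-1 without the BIC.VEH library of number 7. On the higher side the rule named C16orf89, DEGS2 (a sphingolipid desaturase), NAIP (an inflammasome sensor), CDH26 and LINC02614, and none of the 5 was called. NAIP was at 26.47 and 25.06 TPM in BIC.VEH and between 30.43 and 48.12 with the thiohydantoins (0.58, limma adjusted p = 0.189). All 40 G2/M genes were lower in both numbers with the thiohydantoins than with BIC (27.1% of all genes were), with a median of -0.65 and none called. The S phase median was -0.35. BIC.VEH itself lay above VEH for G2/M, with list means of 2.50 and 3.99 against 2.27 and 3.69 in numbers 3 and 7.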

How the data were processed

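RNA of LNCaP cells was sequenced from 16 libraries (8 groups of 2). Per the authors' methods and processing notes, polyA-selected stranded libraries were read as 125 bp pairs, trimmed (Trim Galore 0.6.5, FastQC 0.11.9), aligned to GRCh38 (STAR 2.7.2b) and quantified (RSEM 1.3.3), and the authors deposited TPM values per gene symbol. RSEM divides reads between similar genes by estimation. The protocol gives about 40 M read pairs per library, but the depth of each library cannot be recovered from TPM, so no counting interval is given.

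Genes with a TPM of 1 or more in at least 2 libraries were fitted as log2(TPM + 1) with limma 3.58.1 (R 4.3.3, trended variance) over all 16 libraries, with the replicate number (3 or 7) as a block and Benjamini-Hochberg adjustment. Deviations from group means correlated between libraries of the same number for all 28 pairs of groups (0.204 to 0.635), so the numbers were taken to pair the samples. What a number stands for is not given in the sources used here, and p-values measure only the spread between these libraries. The method was tested on simulated data.

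Named genes averaged 5 TPM or more in a compared group, with values above 0 and no overlap between the groups compared, ranked by moderated t (10 per direction for the pooled comparison, 5 for the others), beside called genes and gene lists. Other list members were picked after their values were seen. The compounds and lists were chosen with earlier results of these data known. Results of some genes covered by the rule or the lists are not reported here. Promoters came from RefSeq (GRCh38.p14), and figures were drawn with Python 3.11.15 and matplotlib 3.10.9. Alternatives changed the block, the libraries fitted, the pseudocount, the filter and the scaling, or left out a library.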

Additional observations from a re-analysis of the deposited data

Results flagged for a closer look

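RNU5E-1 differed between the compounds by 3.48 (log2(TPM + 1), limma adjusted p = 1.02e-05), since it was listed at 0 with ENZ and at 8.68 and 11.91 TPM with APA. Against BIC the pooled thiohydantoins differed by 1.74 for this gene. Groups listed at 0 in both libraries add little spread to the test, so the small p-value largely reflects the 0 values. Both calls were lost with only the compared groups fitted, with a pseudocount of 0.1 and with a minimum TPM of 5.

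The other differences singled out are genes whose response to the thiohydantoins differed from the response to BIC by the test across all genes. KLK3 differed by -2.65, KLK2 by -2.48 and KLK4 by -1.82, all kallikreins induced by DHT. For each of these kallikreins BIC.VEH lay above VEH in both numbers, for example by 2.73 and 3.05 for KLK3. TRPM8 differed by -1.54, ARHGEF26 by -1.23, KCNN2 by -1.04 and SLC45A3 by -0.98. The differences were -0.79 for TMPRSS2, -0.79 for AL357139.2, -0.75 for GPR158, -0.68 for PMEPA1 and -0.53 for ELOVL5. Of these genes, ARHGEF26 remained called when any of the 6 libraries was left out, but not when only the compared groups were fitted (limma adjusted p = 0.0579).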

How the results depend on the processing

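The counts of called genes were small and moved with the processing. For the pooled thiohydantoins against VEH, 2 genes became 1 without the replicate block, 19 with only the compared groups fitted, 1 with a pseudocount of 0.1, 9 without a filter, 1 with a minimum TPM of 5, 1 with median-ratio scaling and 1 with genes above 0 in every library without DHT, an alternative added after seeing the data. With only libraries without DHT it became 3. Neither ARHGEF26 nor RNU5E-1 was among the 19 or the 3 (0 shared genes). For ENZ.VEH, 0 became 2 with only libraries without DHT and 8 without a filter. For APA.VEH, 2 became 1 without the block, 17, 5, 1, 9, 1, 1 and 1 with compared groups, libraries without DHT, pseudocount, no filter, TPM of 5, median-ratio scaling and genes above 0, with 0 of the original genes among the 17. For APA.VEH against ENZ.VEH, 1 became 19, 5 and 8 with compared groups, libraries without DHT and no filter, and RNU5E-1 was not among the 19. It became 0 by limma with the pseudocount, TPM of 5 and genes above 0, where 888, 710 and 849 genes had an unadjusted p below 0.05. Against BIC.VEH, 14 became 2 without the block, 2 with compared groups and 22 without a filter.

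Leaving out a library gave 0 to 3 genes (pooled), 0 to 0 (ENZ), 1 to 5 (APA), 1 to 1 (APA against ENZ) and 1 to 11 (against BIC, lowest without BIC.VEH replicate 2, the library of number 7). Differences near 0 changed sign. CYP3A5 under ENZ was 0.0033 and MCM2 between the compounds -0.0044 with mitochondrial genes removed, and FKBP5 between the compounds 0.0079 with median-ratio scaling. With a library left out, KLK3 pooled ranged from -0.013 to 0.50, and under ENZ TMPRSS2 ranged from -0.0024 to 0.11 and CYP3A5 from -0.24 to 0.23. Between the compounds FKBP5 ranged from -0.076 to 0.011, MKI67 from -0.12 to 0.55 and MCM2 from -0.082 to 0.10. The cause of these shifts was not tested. For the remaining single genes, 809 values kept direction and call status, 53 lost a call and 1 gained a call, outside the left-out libraries. The 809 include genes that were not called to begin with, so they do not measure how stable the calls were. ARHGEF26, pooled against VEH, stayed called in 5 of 9 such alternatives.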
